A study of Rattus norvegicus with 8 samples.

Results

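The genes examined here are those of the mitochondrial ribosomal proteins, taken as every gene with a non-control probe whose name in the array files begins with Mrpl or Mrps followed by a digit. There were 70 such genes with 81 probes, of 14854 genes tested and 30367 probes on the array, and 42 carried a large-subunit name and 28 a small-subunit name. They were measured in livers of Wistar rats aged 21 days, in 4 pups of dams fed a diet without vitamin B12 and folate (deficient) and in 4 pups of dams fed standard food (control). The diets began before pregnancy and ran until weaning, so the deficiency was that of the dam through gestation and suckling. Deficient animals 1 and 3 and control animals 2, 3 and 4 were female, and deficient animals 2 and 4 and control animal 1 were male. Which dam or litter a pup came from is not stated in the sources used here, so littermates may be among the animals and a p-value reflects the spread of these pups alone.

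Mitochondrial ribosomes translate the few proteins encoded by mitochondrial DNA, all of them subunits of the oxidative phosphorylation complexes. The ribosomal RNAs come from mitochondrial DNA, while every protein of the large (Mrpl) and small (Mrps) subunits is encoded in the nucleus, made in the cytosol and imported. Some of these proteins have bacterial counterparts and keep their numbers, and the rest were added in the mitochondrial lineage. Vitamin B12 and folate serve in the remethylation of homocysteine to methionine, and liver is a main site of methyl group use.

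The 60-base probes of the 5 members on which the results below turn are shown first: the 3 that passed the test and the 2 with the highest mean differences, the last 2 chosen after their values were seen. All letters are in lower case, 5′ to 3′, because no part of a probe is singled out. The Mrps36 probe lies over a stretch of 1039 positions, longer than its own 60 bases, and so joins sequence from either side of an interruption in the genome, whereas the other 4 lie unbroken.
Mrps36 probe, rn4 chr2:31531272-31532310, minus strand: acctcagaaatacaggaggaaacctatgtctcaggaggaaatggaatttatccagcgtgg
Mrps27 probe, rn4 chr2:30386318-30386377, plus strand: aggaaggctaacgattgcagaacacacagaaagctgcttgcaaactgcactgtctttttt
Mrpl14 probe, rn4 chr9:10901828-10901887, minus strand: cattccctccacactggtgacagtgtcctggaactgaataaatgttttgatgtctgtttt
Mrps10 probe, rn4 chr9:9077319-9077378, minus strand: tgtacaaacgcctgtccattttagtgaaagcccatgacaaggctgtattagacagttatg
Mrpl48 probe, rn4 chr1:157980221-157980280, minus strand: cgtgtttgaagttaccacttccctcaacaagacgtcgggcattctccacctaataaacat
Compared in the direction printed, the longest run that probes of different members shared was under 15 bases. The same comparison found no such run between the 2 probes of Mrpl54, whose positions overlap, so it can miss shared sequence.

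Each array carried 1 deficient and 1 control animal in different dyes: array 1 joined deficient 3 and control 1, array 2 joined deficient 1 and control 3, array 3 joined deficient 4 and control 2, and array 4 joined deficient 2 and control 4. Median spot signals were between 152.5 and 299 over backgrounds of 33 to 58, between 59.1% and 65.5% of spots were well above background, and 0 were saturated. The hepatocyte markers Alb, Apoa1, Ttr, Ahsg, Serpina1 and Fgb were bright in every animal, as in liver, and 4 of the 6 fell (summed log2 signal 19.7 to 20.2 in deficient and 20.3 to 20.6 in control livers). Alb was lower in deficient livers (log2 difference -1.01) and Apoa1 higher (0.35), and neither passed the test. In a bulk sample, fewer cells of a type and less RNA per cell cannot be told apart. Of the neutrophil markers 4 of 5 tested fell, S100a8, S100a9, Camp and Np4 (10.2 to 10.9 in deficient and 10.9 to 11.5 in control livers). Mpo did not pass the test (log2 difference 0.06), and Elane was too dim to be tested. Over all genes tested, 6.6% were called lower. For erythroid markers 0 of 4 passed the test (15.7 to 17.2 against 16.6 to 17.7), and for Kupffer cell markers 0 of 5 (13.7 to 14.5 against 13.5 to 14.5). The skeletal muscle markers Acta1, Tnni2 and Mb stood high in deficient animal 3, with summed signals of 9.5 to 12.3 in deficient and 9.38 to 9.78 in control livers, while Ckm, Tnnt3, Myh4 and Actn3 were too dim to be tested. Of the adipocyte markers 1 of 4 could be tested (9.07 to 9.89 and 9.87 to 10), and of the lymphocyte markers 0 of 5. The part of these shifts in the results below was not tested, except that values without deficient animal 3 are given where they differ.

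Few transcripts of mitochondrial ribosomal proteins passed the test for a difference between deficient and control livers. Mrps36 and Mrpl14 rose and Mrps27 fell, 3 of 70 members at an adjusted p under 0.05 (4.29%), while 1661 of 14854 genes tested passed the same test (11.2%). With the array as a fixed block, which pairs the deficient and the control animal of an array, none of these 3 calls held: 0 of 70 members and 469 genes (3.16%) were called, and the same was found with within-array ratios. By direction, 2 members rose against a background of 4.58%, and 1 fell against a background of 6.6%. An unadjusted p under 0.05 was reached by 18 of 70 members, 14 of them higher and 4 lower in deficient livers, and by 27.6% of all genes. The count of called members moved with single animals: it was 16 without deficient animal 2, when 23.9% of all genes were called. It was 11 without array 4 (19.4%), 1 without control animal 1 (4.61%), 0 without control animal 3 (2.59%) and 0 without array 3 (1.41%). It was 3 without deficient animal 1 (10.3%), deficient animal 3 (11.2%), control animal 2 (3.99%) or control animal 4 (7.09%). It was 2 without deficient animal 4 (3.44%), array 1 (7.49%) or array 2 (6.19%). The tests were those of limma, with p-values adjusted over all genes by Benjamini-Hochberg. A difference is the deficient mean minus the control mean on the log2 scale, and its SE is that of the fit with 4 animals per diet.

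The members' log2 differences ran between -0.46 and 1.1, with a median of 0.030 beside 0.0096 over all genes, and their middle range lay between -0.09 and 0.15. A positive difference was seen in 40 and a negative one in 30. The median was 0.0065 without control animal 1 and 0.055 without control animal 4. The median size of a member's difference was 0.13, against 0.14 over all genes, and the median SE was 0.09 against 0.10. For 56 of the 70 members (80.0%) the 95% interval of the difference lay wholly within 0.5 log2 units of 0, as it did for 68.8% of all genes, and for 68 members it lay within 1 log2 unit. The bound of 0.5 was chosen after the values had been seen. All 4 deficient animals were above all 4 controls for Mrpl45, Mrpl48, Mrpl55, Mrps25 and Mrps36, 5 members against a background of 5.51%, and all 4 were below all controls for Mrpl36 and Mrps27, 2 members against a background of 5.96%.

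**Figure D1:**
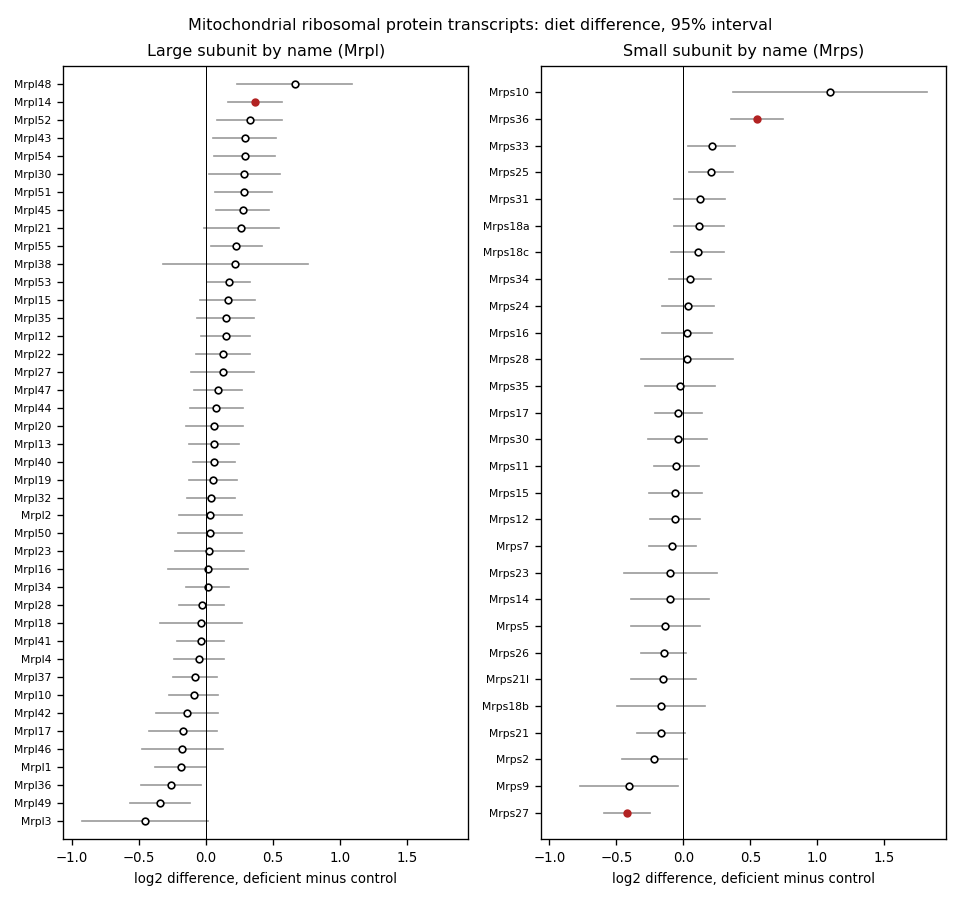
Log2 difference, deficient minus control, of each of the 70 mitochondrial ribosomal protein transcripts (points) with its 95% interval (bars), large-subunit names on the left and small-subunit names on the right. The 3 filled points passed the test at an adjusted p under 0.05. Most intervals cross 0, and Mrps10 has the widest interval and the highest difference.

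Among large-subunit proteins, Mrpl14 was the member that passed the test. Its protein sits on the face of the large subunit that meets the small one and is conserved from bacteria. Normalized log2 signals were 14.71, 14.39, 14.59 and 14.29 in deficient animals 1 to 4, against 14.31, 14.20, 14.01 and 13.99 in control animals 1 to 4. The groups touch, since deficient animal 4 lay just under control animal 1, and the deficient animal was higher on all 4 arrays. The difference was 0.37 ± 0.09 (SE, n = 4 each, limma adjusted p = 0.0346). The call held without deficient animal 2 (adjusted p = 0.00972) or array 4 (0.0199) but was lost whenever any other animal or array was left out, with differences of 0.29 to 0.41 and adjusted p between 0.0582 and 0.177. It was also lost with the array as a fixed block (0.11), with no array block (0.162), with the software's processed signals (0.0707), with a sex term (0.0539) and in females only (0.13).

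Mrpl48, a protein of the large subunit's central protuberance with no bacterial namesake, had the highest difference of the large-subunit names. It gave 13.50, 12.48, 12.05 and 12.35 in deficient animals 1 to 4 and 11.95, 12.04, 11.78 and 11.96 in control animals 1 to 4. The groups did not overlap, but deficient animal 1 stood well above the rest of its group, and deficient animal 3 was nearly level with control animal 2. The mean difference of 0.66 ± 0.19 missed the threshold (limma adjusted p = 0.0571). Without deficient animal 1 the difference was 0.38 with an adjusted p of 0.0277, and the call was also made without deficient animal 2 (0.88, 0.00972), control animal 4 (0.84, 0.0393) or array 4 (0.96, 0.00964).

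The proteins of the stalk, which recruits translation factors, showed no difference that passed the test. Mrpl12, the stalk protein also reported in human cells to bind the mitochondrial RNA polymerase, gave 14.76, 15.12, 15.05 and 15.04 in deficient animals, against 14.88, 14.86, 14.80 and 14.84 in control animals. Deficient animal 1 was the lowest of all 8 and the other 3 deficient animals were the highest, so that the difference of 0.15 ± 0.08 had a limma adjusted p of 0.284 and an interval of -0.04 to 0.33. Mrpl10, the base of the stalk, differed by -0.09 ± 0.08 (interval -0.27 to 0.09). Its second probe differed by 0.00 ± 0.09, on the positive side, and neither probe was called. Mrpl35 was the other gene whose probes differed in sign, at 0.15 ± 0.09 and -0.07 ± 0.07, and neither passed the test. The 2 tested probes of Mrpl54, which overlap on the genome, gave 0.29 each.

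At the exit of the nascent chain tunnel, Mrpl45, which in mammals ties the ribosome to the inner membrane, gave 12.28, 11.88, 11.95 and 12.01 in deficient animals and 11.81, 11.68, 11.82 and 11.72 in control animals. Every deficient animal was above every control, by a mean of 0.28 ± 0.09, and the limma adjusted p was 0.0773. Without deficient animal 2 that p was 0.0213, and without array 4 it was 0.037. Mrpl23, another protein of the tunnel exit, differed by 0.03 ± 0.11 (interval -0.23 to 0.28). Mrpl44, a protein with a ribonuclease III fold, differed by 0.08 ± 0.09 (interval -0.12 to 0.27).

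Mrpl3 and Mrpl49 had the lowest differences of the large-subunit names, and neither passed the test. For Mrpl3, a core protein conserved from bacteria, deficient animal 1 was at 7.68 and the other deficient animals were at 8.98, 8.96 and 9.03, while control animals were at 8.62, 9.19, 9.27 and 9.39. The difference of -0.46 ± 0.21 (limma adjusted p = 0.194) moved to -0.17 without deficient animal 1 (0.425). It moved to -0.72 without deficient animal 2 (0.0149) and to -0.75 without array 4 (0.0227). Mrpl49 gave 8.99, 9.33, 9.45 and 9.47 in deficient animals and 9.39, 9.79, 9.70 and 9.73 in control animals. Its groups overlapped through control animal 1, and its difference was -0.34 ± 0.10 (adjusted p = 0.0587, and 0.0259 without deficient animal 2 or 0.0408 without array 4). Mrpl36, a small zinc-binding protein conserved from bacteria, falls outside the rule by which genes were named. It was lower in every deficient animal than in any control, with a difference of -0.26 ± 0.10 (limma adjusted p = 0.13). That p was 0.0179 without deficient animal 2 and 0.0238 without array 4.

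Among small-subunit names, Mrps27 fell. Its protein carries pentatricopeptide repeats, a helical repeat found in RNA-binding proteins of organelles, and has no bacterial counterpart. It gave 7.53, 7.29, 7.35 and 7.51 in deficient animals 1 to 4, against 7.81, 7.82, 7.87 and 7.86 in control animals 1 to 4. The controls were nearly level and every deficient animal was below all of them. The difference was -0.42 ± 0.08 (limma adjusted p = 0.0115). This probe was dim, and the size of its difference moved with the background: it was -0.79 with the software's own background-subtracted signals (0.00755) and -0.34 with spots in high local background kept (0.0599). The call was also lost with the array as a fixed block (0.0764), with no array block (0.0635) and in females only (0.201). The adjusted p was 0.0619 without control animal 1, 0.069 without control animal 3, 0.0723 without array 1 and 0.101 without array 3, with differences between -0.38 and -0.46.

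Mrps10, a conserved protein of the small subunit's head, had the highest difference of all 70 members and the widest spread. Deficient animals 1 to 4 gave 7.90, 8.65, 6.90 and 8.93, while control animals 1 to 4 gave 7.07, 7.04, 6.95 and 6.92. The controls were nearly level, 3 deficient animals were well above them, and deficient animal 3 was the lowest of all 8. This probe was dim, though well above background in all 8 samples. The controls and deficient animal 3 lay about as low as Mrpl47 (6.73 to 7.03), which was well above background in only 4 samples. How far this low signal narrowed the spread of the controls was not tested. The SD was 0.91 in deficient livers and 0.07 in control livers, and the mean difference of 1.1 ± 0.32 missed the threshold (limma adjusted p = 0.0604). Without deficient animal 3 the difference was 1.56 with an adjusted p of 0.00278, and without array 1, which held that animal, it was 1.61 (0.00702). Deficient animal 3 was the animal with raised muscle markers, and its part in this gene's spread was not tested.

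Mrps9, another conserved protein of the head, gave 9.50, 10.41, 9.92 and 10.17 in deficient animals, against 9.99, 10.59, 10.46 and 10.58 in control animals, a difference of -0.40 ± 0.16 that did not pass the test (limma adjusted p = 0.142). It was called without deficient animal 2 (-0.60, 0.0116) and without array 4 (-0.60, 0.0224). The groups overlapped, with deficient animal 1 the lowest of all 8. Mrps12, which lies at the decoding centre, differed by -0.06 ± 0.08 (interval -0.25 to 0.12), Mrps7 by -0.08 ± 0.08 (-0.26 to 0.09) and Mrps5 by -0.13 ± 0.11 (-0.39 to 0.12). The 3 mammalian relatives of bacterial S18, each in a different place in the ribosome, differed by 0.12 ± 0.08 for Mrps18a, -0.17 ± 0.14 for Mrps18b and 0.11 ± 0.09 for Mrps18c, and none passed the test.

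Mrps36 had the smallest p of the members. Normalized log2 signals were 12.37, 12.26, 12.13 and 12.17 in deficient animals 1 to 4, against 11.67, 11.60, 11.58 and 11.87 in control animals 1 to 4. Every deficient animal was above every control, and the deficient animal was higher on all 4 arrays, by 0.40 to 0.79. The difference was 0.55 ± 0.09 (limma adjusted p = 0.00707). It was 0.50 without control animal 3 (0.0566) and 0.52 without array 3 (0.101), and it was called without any other single animal or array. The call was also lost with the array as a fixed block (0.0549) and in females only (0.158). The RefSeq table lists this gene as Kgd4, a subunit that holds together the 2-oxoglutarate dehydrogenase complex of the citric acid cycle, and structures of the mammalian mitochondrial ribosome do not place it in either subunit. Set apart by those structures, the small subunit has 1 called member, Mrps27, and the large subunit 1, Mrpl14.

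**Figure D2:**
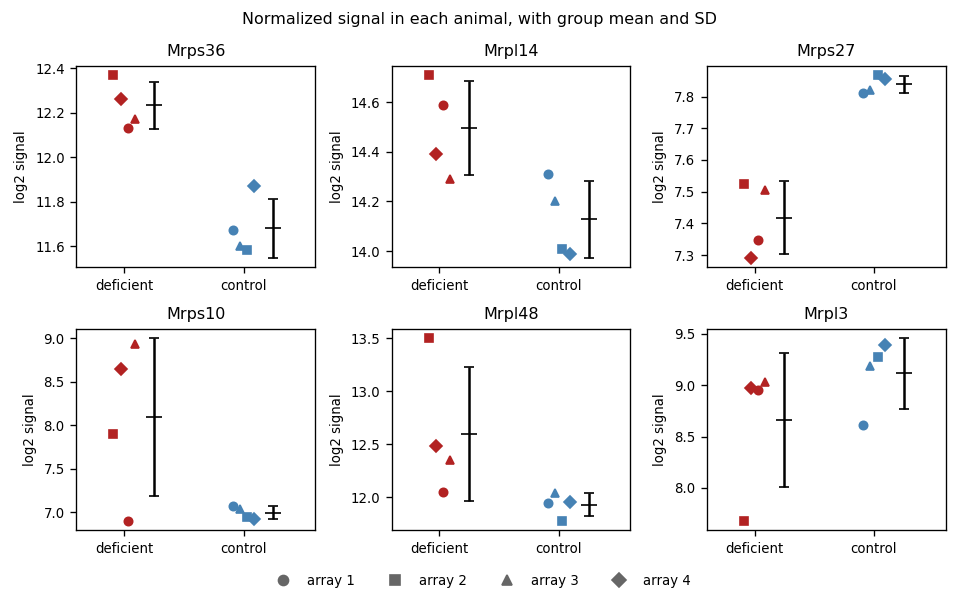
Normalized log2 signal in each animal for the 3 members that passed the test (top row) and for 3 that did not (bottom row), deficient animals left and control animals right in each panel, with the group mean and SD (n = 4 each). Marker shapes give the array, which joins 1 deficient with 1 control animal. Mrps10 is level in controls and high in 3 of 4 deficient animals, and Mrpl3 is low in 1 deficient animal.

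Besides Mrpl48, Mrpl49, Mrps10 and Mrpl45, described above, these members missed the threshold at an adjusted p under 0.12. Each had a higher mean in deficient livers, unlike Mrpl49, and they were chosen after their values were seen: Mrpl52 differed by 0.33 (limma adjusted p = 0.087), Mrpl51 by 0.28 (0.0871), Mrpl54 by 0.29 (0.0989), Mrps25 by 0.21 (0.101), Mrpl43 by 0.29 (0.109), Mrpl55 by 0.23 (0.114) and Mrps33 by 0.21 (0.114). Some of these were called with 1 animal or array fewer: without deficient animal 2, Mrpl51 (0.034), Mrpl54 (0.00939), Mrps25 (0.0316) and Mrpl43 (0.0167); without array 4, Mrpl54 (0.0191) and Mrpl43 (0.0162); and without control animal 2, Mrpl52 (0.0331). These are proteins added in the mitochondrial lineage, without bacterial namesakes. Members were therefore also split by number, again after their values had been seen. The 40 members with numbers that bacterial ribosomes use (up to 36 in the large and 21 in the small subunit) had a median difference of -0.0091. Of these 40, 1 was called (Mrpl14), and 5 had an unadjusted p under 0.05, 3 of them higher and 2 lower in deficient livers. The 30 with higher numbers had a median of 0.07. Of these 30, 2 were called (Mrps27 and Mrps36, the last placed in neither subunit by structures), and 13 had an unadjusted p under 0.05, 11 of them higher and 2 lower. Over all genes the shares were 11.2% called and 27.6% at an unadjusted p under 0.05. Since the split was chosen from these values it was not tested.

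Large-subunit members lay on balance slightly above 0 and small-subunit members slightly below it. The median difference was 0.06 for the 42 large-subunit names, with 29 above and 13 below 0, and -0.05 for the 28 small-subunit names, with 11 above and 17 below 0. Called members numbered 1 in the large and 2 in the small subunit, beside the background of 11.2%. As single animals or arrays were left out, they numbered between 0 and 12 in the large and 0 and 4 in the small subunit. Both counts were highest without deficient animal 2, when the share of all genes called was 23.9%. The large median minus the small median was 0.11, and 0.12 with Mrps18a and Mrps30 moved to the large subunit and Mrps36 set aside, as structures place them. Over arrays 1 to 4 it was -0.02, 0.18, 0.05 and 0.11, so that 3 of 4 arrays shared its sign and the SD over arrays was 0.09. These ratios carry no dye term, and the deficient animal was in Cy5 on arrays 2 and 4 and in Cy3 on arrays 1 and 3. The small-subunit median was 0.06, -0.09, 0.02 and -0.04 on arrays 1 to 4, below 0 only where the deficient animal was in Cy5. The part of the dye in these array values was not tested. Leaving out single animals or arrays, the large median minus the small median was between 0.05 (without deficient animal 1) and 0.17 (without array 4). Mrps30, a large-subunit protein despite its name, differed by -0.04 ± 0.10.

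The spread of the members varied between arrays more than their centre did. The median within-array log2 ratio was 0.04, 0.01, 0.03 and 0.03 on arrays 1 to 4, and the SD over members was 0.23, 0.51, 0.30 and 0.31. The SD over all genes followed the same order, at 0.31, 0.57, 0.40 and 0.42. Array 2 held deficient animal 1, which was the highest of the 8 animals for 26 members and the lowest for 19. These are 37.1% and 27.1% of the members, and over all genes it was the highest for 28.6% and the lowest for 26.7%. Without this animal the count of called members was again 3, but Mrpl14 was lost (limma adjusted p = 0.0582) and Mrpl48 was gained (0.0277).

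**Figure D3:**
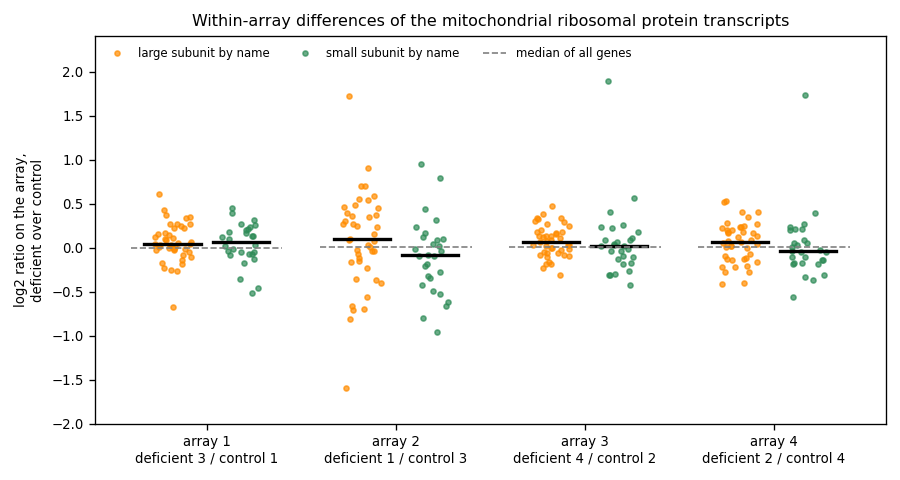
Within-array log2 ratio, deficient over control, of each member on each of the 4 arrays, large-subunit names left and small-subunit names right in each pair. Solid bars are the medians of the members shown and dashed lines the median of all genes. The medians lie near 0 on every array, and the points spread widest on array 2.

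Of the probe pairs of the 11 genes with 2 probes, 9 could be compared, since the second probes of Mrpl30 and Mrpl50 were well above background in no sample. Every gene had a tested probe, and all but Mrps28 and Mrpl47 were well above background in all 8 samples, so the filter on dim probes removed none of the 70. Some mitochondrial ribosomal proteins are written otherwise in the files and fall outside the name rule. Among these, mrpl24 rose by 0.50 ± 0.12 (limma adjusted p = 0.0342), with 11.49, 11.39, 10.90 and 11.60 in deficient animals and 10.63, 10.88, 10.88 and 10.99 in control animals. Deficient animal 3 lay within the control range. The call for mrpl24 was lost without deficient animal 1 (0.0627) or 4 (0.143), without control animal 1 (0.13), 2 (0.129), 3 (0.156) or 4 (0.0536), and without array 2 (0.112) or 3 (0.257). It was also lost with the array as a fixed block (0.0792). For mrpl11 of the stalk base the difference was 0.19 (adjusted p = 0.147), for mrpl9 0.20 (0.122), for Mrpl57 -0.04 (0.789), for Mrpl58 0.09 (0.466) and for Mrps22 -0.41 (0.0734). With these 6 genes added, 4 of 76 members were called (5.26%) and the median was 0.03.

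Of 7 ribosome proteins outside the name rule, 15 translation factors and 23 assembly and rRNA modification factors, 0 were called by limma. An unadjusted p under 0.05 was reached by 1, 3 and 4 of them, and the medians were 0.09, 0.03 and 0.05. The first of these lists shares Mrpl57 and Mrpl58 with the names above. Over all genes, 11.2% were called and 27.6% had an unadjusted p under 0.05. Together with the lists described next, 6 of 70 listed genes were called. As single animals or arrays were left out, this count was between 1 (without array 3, when 1.41% of all genes were called) and 13 (without deficient animal 2, 23.9%). Tufm, the elongation factor that brings aminoacyl-tRNA to the ribosome, differed by -0.02 ± 0.08 (interval -0.19 to 0.16).

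Of 15 genes that copy, package or transcribe mitochondrial DNA or process its RNA, 3 were called, beside 11.2% of all genes. Polg2, the accessory subunit of the mitochondrial DNA polymerase, was at 11.01, 11.21, 11.64 and 11.22 in deficient animals, against 12.18, 12.29, 12.50 and 12.37 in control animals. It was lower in every deficient animal than in any control, with a difference of -1.07 ± 0.10 (limma adjusted p = 0.00167), and was called whichever animal or array was left out. Polrmt, the mitochondrial RNA polymerase, fell by 0.32 on the log2 scale (0.0461) and Tefm, its elongation factor, rose by 0.30 (0.0312). The call for Polrmt was lost in 10 of 12 fits that left out an animal or array, with adjusted p up to 0.285, and held without deficient animal 2 or array 4. The call for Tefm was lost in 8 of the 12, with adjusted p up to 0.258, and held without deficient animal 1, 2 or 3 or array 4. With the array as a fixed block, Polg2 was still called, and Polrmt (0.137) and Tefm (0.123) were not. Tfam, which packages mitochondrial DNA, differed by -0.17 ± 0.17 (interval -0.56 to 0.22).

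Of 10 regulators of mitochondrial biogenesis, 3 rose and 0 fell, beside 4.58% of all genes called higher and 6.6% called lower. Esrra, the estrogen-related receptor alpha, was at 12.01, 11.84, 11.99 and 11.93 in deficient animals, against 11.45, 11.53, 11.55 and 11.35 in control animals. The groups did not overlap, and the difference was 0.47 ± 0.07 (limma adjusted p = 0.00661, and 0.0699 without array 3). Nrf1, a transcription factor of many nuclear genes for mitochondrial proteins, differed by 0.27 ± 0.07 (0.0439), and the coactivator Ppargc1b by 0.30 ± 0.07 (0.0348). Each of these 2 calls was lost in 9 of the 12 fits that left out an animal or array, Nrf1 with adjusted p up to 0.286 and Ppargc1b up to 0.30, and each held without deficient animal 1 or 2 or array 4. With the array as a fixed block, none of the 3 was called (Esrra 0.0528, Nrf1 0.143, Ppargc1b 0.134). When a gene's probes were averaged instead of taking the brightest, Nrf1 differed by 0.28 and was not called (limma adjusted p = 0.143). Ppargc1a differed by 0.34 ± 0.10 (0.0745, and 0.0381 without deficient animal 3 or 0.0483 without array 1), and Gabpa, the DNA-binding subunit of the ETS-type factor NRF2, by -0.23 ± 0.08 (0.0942, and 0.0391 without deficient animal 2).

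The letters that such factors are known to bind were looked for on both strands of the promoters, 250 bases before to 50 after each gene's start, in RefSeq sequences of the GRCr8 build. Promoters were listed for 56 members. The NRF1 palindrome core CGCATGCG was in 6 of them and in 1.66% of all 33469 promoters, the ETS core CCGGAAG in 18 (32.1%) and 8.75%, and the YY1 letters AAGATGGC in 14 (25%) and 3.17%. A member was counted on 1 promoter, whereas the share over all promoters counted every one listed, not 1 per gene. Each set of letters was counted separately, and the ETS and YY1 letters can share bases where they adjoin, which they do not in the promoters printed here. The median difference was 0.08 in members with and -0.03 in members without the ETS core, -0.08 with and 0.03 without the YY1 letters, and -0.03 with and 0.02 without the NRF1 core. Called members numbered 1 with and 2 without the ETS core, and likewise for the YY1 letters, while all 3 were without the NRF1 core. The motifs were picked after the values had been seen. Of the 5 members shown above, the promoters of Mrps36 and Mrpl14 held none of the 3, and those of Mrps27, Mrpl48 and Mrps10 each held an ETS core and a YY1 match. These last are printed with both matches in capitals, an ETS core on the minus strand reading CTTCCGG, because 1 of them fell and 2 had the highest differences while carrying the same pair.
Mrps27 promoter, GRCr8 chr2:32473954-32474253, plus strand: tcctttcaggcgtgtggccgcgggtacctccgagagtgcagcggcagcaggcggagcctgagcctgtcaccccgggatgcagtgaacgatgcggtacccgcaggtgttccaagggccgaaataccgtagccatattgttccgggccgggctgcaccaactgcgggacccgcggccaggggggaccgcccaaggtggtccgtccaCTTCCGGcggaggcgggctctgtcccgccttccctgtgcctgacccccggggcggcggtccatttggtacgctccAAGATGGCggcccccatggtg
Mrpl48 promoter, GRCr8 chr1:164351327-164351626, minus strand: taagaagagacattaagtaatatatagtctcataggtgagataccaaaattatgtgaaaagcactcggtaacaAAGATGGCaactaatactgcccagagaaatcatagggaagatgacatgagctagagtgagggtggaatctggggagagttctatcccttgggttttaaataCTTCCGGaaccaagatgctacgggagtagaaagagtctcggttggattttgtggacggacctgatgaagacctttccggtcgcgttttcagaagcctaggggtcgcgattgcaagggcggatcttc
Mrps10 promoter, GRCr8 chr9:21122404-21122703, minus strand: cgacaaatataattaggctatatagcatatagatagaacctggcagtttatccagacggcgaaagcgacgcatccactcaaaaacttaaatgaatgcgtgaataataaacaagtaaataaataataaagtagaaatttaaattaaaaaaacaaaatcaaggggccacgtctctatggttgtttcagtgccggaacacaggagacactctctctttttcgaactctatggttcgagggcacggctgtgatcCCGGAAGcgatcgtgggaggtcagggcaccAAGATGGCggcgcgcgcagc
In Mrps27 and Mrps10 the YY1 match lies within the last bases of the window, after the gene's start, whereas in Mrpl48 it lies far before it. A match is a description of these letters and shows no binding.

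The probes on mitochondrial DNA, whose transcripts these ribosomes translate, changed in both directions. This group was added after the annotation had been seen. Of 13 probes, 4 were called (30.8%, beside 11.2% of all genes), and the median difference was -0.09. The probe of NADH-ubiquinone oxidoreductase chain 2 was at 16.01, 15.61, 15.70 and 15.82 in deficient animals, against 15.07, 14.91, 14.59 and 14.76 in control animals. It rose by 0.95 ± 0.11 (limma adjusted p = 0.00241) with no overlap, and was called whichever animal or array was left out. The probe of NADH-ubiquinone oxidoreductase chain 1 rose by 0.39 ± 0.10 (0.036), a call lost in 9 of the 12 fits that left out an animal or array, with adjusted p up to 0.291, and held without deficient animal 2, control animal 4 or array 4. With the array as a fixed block it was also lost (0.132).

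The Cytochrome b probe gave 16.70, 16.45, 16.74 and 16.58 in deficient animals and 17.05, 17.03, 17.30 and 17.27 in control animals. It fell by 0.55 on the log2 scale (limma adjusted p = 0.00517, and 0.0748 without array 3), again with no overlap. With the authors' deposited values the difference was -0.25 (0.157). The Cytochrome c oxidase subunit 3 probe fell by 0.69 (0.0195), and its call was lost in 7 of the 12 fits, with adjusted p up to 0.161, namely without deficient animal 4, any control animal, or array 2 or 3, as it was with the array as a fixed block (0.0649). The probe of NADH-ubiquinone oxidoreductase chain 6, the one messenger of the other strand, differed by 0.92 ± 0.28 (0.068) and was called without deficient animal 2 or 3 or array 1 or 4. As background, most of these messengers are cut from long shared precursors.

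**Figure D4:**
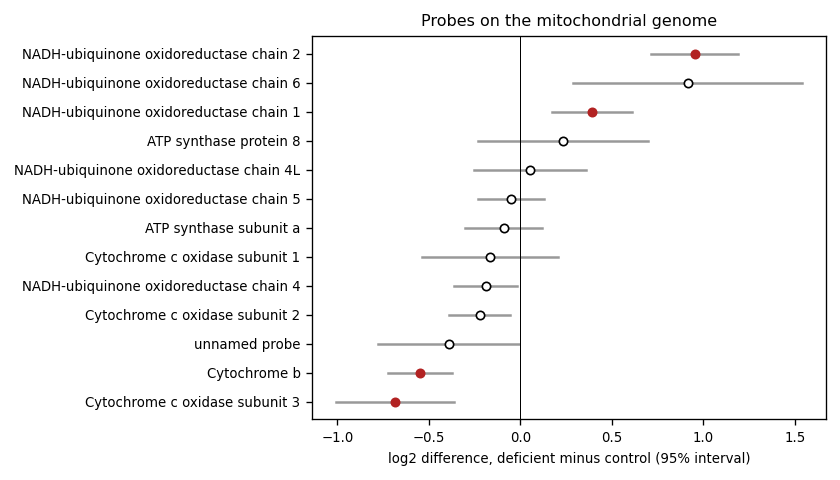
Log2 difference, deficient minus control, of each probe on mitochondrial DNA (points) with its 95% interval (bars), ordered by difference. Filled points passed the test at an adjusted p under 0.05. The called probes of NADH-ubiquinone oxidoreductase chains 1 and 2 lie above 0, and those of Cytochrome b and Cytochrome c oxidase subunit 3 lie below 0.

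Other nuclear-encoded protein families are given here for scale. Of 100 genes whose names begin with Rpl or Rps and a digit, 8 rose and 0 fell, with a median difference of 0.13. That rule is meant for cytosolic ribosomal proteins but goes by name alone, so it also admits other genes so named, such as Rps6k kinases. Of 47 genes named Nduf, which encode complex I subunits or assembly factors, 3 rose and 0 fell, with a median of 0.07. These counts stand beside 4.58% of all genes called higher and 11.2% called in either direction. Both families were picked after values had been seen, the differences between families were not tested, and the members' own median was 0.030 with 2 rises and 1 fall.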

How the data were processed

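Liver RNA of 8 animals was measured on 4 Agilent 2-colour rat arrays of 1 slide, and each deposited file holds 1 array. Spot intensities were extracted by the authors in Agilent Feature Extraction (version 10.7.1.1, a tool named in the submitters' processing notes and per the file headers), with probe positions on rn4. The deposited files of the 2 animals of an array were identical, which assigned animals to arrays. The authors also deposited normalized intensities, whose making the sources used here do not describe, and these served only as an alternative. Flags in the deposited files, 0 or 1 per spot, marked outliers and spots well above background.

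The software was limma (version 3.58.1) under R (version 4.3.3). Spots with a local background over 5 times the channel's median were left out (74 values, a threshold set in earlier work after results had been seen), followed by normexp (offset 50), loess within arrays and Aquantile between arrays. Outlier spots and 68 probes with missing values were left out, and a probe was kept if well above background in at least 4 of 8 samples. The brightest probe stood for its gene. Diet was fitted with a dye term and the array as a random block (correlation 0.421), and Benjamini-Hochberg adjustment ran over all genes, with a threshold of 0.05. The fit was tested on simulated data with the same design before it was used. Precision is limited by the number of arrays. Replicate numbers follow sample order and pair nothing.

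The members, the gene lists and the subunit assignments were chosen with earlier results of these data known. Genes named are the called members, the 4 highest and 4 lowest differences, a set of members of known role, called genes of the lists with 6 regulators, members whose probes differ in sign, and members with an animal far from its group. Mrpl36 and the probe pair of Mrpl54 fall outside this rule. Other genes outside it are marked in the text or named only for a count or a comparison. Promoter sequences are RefSeq's on GRCr8, and no rn4 annotation or protein sequence was used here. The alternatives tried are in the closing section.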

Additional observations from a re-analysis of the deposited data

Results flagged for a closer look

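Among the 140 groups of 4 animals (70 members in each diet group), 11 held 1 animal whose distance to its nearest neighbour, as a share of the group's whole range, was above the 95% critical value of Dixon's test (7.86%). Chance flags about 1 group in 20. Control animal 1 was the one standing apart in 5 of them and deficient animal 1 in 4.

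Deficient animal 1 was low for Mrpl3 (7.68 against 8.96 to 9.03 in the other deficient animals, ratio 0.946), Mrpl16 (9.82 against 10.46 to 10.53, 0.91), Mrpl17 (13.01 against 13.63 to 13.70, 0.896) and Mrps23 (9.53 against 10.21 to 10.34, 0.834). Control animal 1 was low for Mrpl15 (9.61 against 9.96 to 9.97 in the other controls, ratio 0.988), Mrpl46 (10.07 against 10.45 to 10.48, 0.929), Mrps21l (10.12 against 10.51 to 10.55, 0.905) and Mrps23 (9.82 against 10.29 to 10.34, 0.9), and high for Mrpl20 (13.90 against 13.73 to 13.74, 0.987). Control animal 2 was low for Mrps28 (6.60 against 7.28 to 7.39, 0.864), and control animal 4 was low for Mrps35 (10.97 against 11.37 to 11.42, 0.895). None of these 10 members passed the test of diet in limma. Without deficient animal 2, Mrpl3 (0.0149) and Mrpl17 (0.0499) did, and Mrpl3 also without array 4 (0.0227).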

How the results depend on the processing

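All 8 animals entered 28 settings, of which 12 left out an animal or an array. Replicate numbers follow sample order and pair nothing, so the pairing is that of the array, taken as a fixed block or as within-array ratios. The count of called members was 3 and became 5 with loess only, 1 with no array block, 0 with the array as a fixed block, with within-array ratios and with females only, and 21 with sample weights (0.306 for deficient animal 1, 3.29 for deficient animal 4). It was between 0 and 16 as animals or arrays were left out. Large-subunit calls, 1 in the reported fit, were 0 with the software's processed signals, a fixed block, no block, ratios, the sex term and females only, 2 with loess only and 13 with weights (0 to 12 over the fits that left out an animal or array). Small-subunit calls, 2 in the reported fit, were 1 with high-background spots kept, no block and subunits by structure, 0 with a fixed block, ratios and females only, and 8 with weights (0 to 4). Calls in the mitochondrial lists, 6 in the reported fit, were 3 with high-background spots kept and with loess only, 2 with the authors' values, no block and the sex term, 1 with a fixed block and ratios, 0 with females only and 18 with weights (1 to 13). The members' median of 0.0296 was 0.00155 with high-background spots kept, 0.055 with processed signals, 0.0557 with the authors' values, 0.0452 with the sex term, -0.0109 with females only and 0.00883 with weights (0.0065 to 0.055). The large minus small median, 0.108 in the reported fit, stayed positive in every setting (0.0511 to 0.171). Its shift away from 0.108 was in every setting smaller than its SD over arrays (0.0875). Counts over all genes moved too, from 1661 to 62 with females only, 210 without array 3, 3547 without deficient animal 2 and 4062 with weights. The share of all genes called was 11.2% in the reported fit, 13.2% with loess only, 9.55% with the authors' values and 8.4% with processed signals. It was 6.41% with high-background spots kept, 5.56% with the sex term, 3.16% with a fixed block or ratios and 2.69% with no block. With females only it was 0.417%, and with weights 27.3%. Single calls were lost in 5 of 26 settings for Mrps36, 9 for Mrps27 and 16 for Mrpl14, and no called difference changed sign. The causes were not tested. The females-only fit used the array correlation of all 8 animals, a choice made after seeing the data.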
